A study of Homo sapiens and Mus musculus with 66 samples.

Results

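Short gaps between K562 lamina regions are the stretches of at most 1 Mb that separate neighbouring NL-chromatin regions called by lamin-B1 cTSA-seq in K562 cells. NL is the nuclear lamina, the protein mesh under the inner nuclear membrane. The gaps were chosen by the start and end positions of the called regions alone, so their size is a description and not a finding. Of 640 gaps between consecutive regions on the same chromosome of hg19, 309 (48.3%) were short, and the other 331 were longer than 1 Mb.

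In cTSA-seq, an antibody to lamin-B1 brings a peroxidase to the lamina of fixed cells, nearby chromatin is tagged with biotin, and the tagged DNA is pulled down on streptavidin (StrePD) and sequenced beside its input. K562 is a human leukaemia cell line and HCT116 a human colorectal cancer cell line, and each list stands for the line and not for a tissue. For cTSA-seq of K562 cells the labels hold 2 input and 2 pull-down libraries of untreated asynchronous cells, and the TSA-seq list that is compared with them comes from published K562 data with another lamin-B antibody, called by the same authors. The study's own K562 TSA-seq libraries (2 input and 2 pull-down) were not used here. HCT116 cells were profiled as an asynchronous bulk, with 50000, 200000 and 1000000 cells, after sorting for G1, S and G2 without a block, and after nocodazole (16 h by the labels) followed by release for 90 min or 180 min and a sort for G1 (90m G1 and 180m G1). The study's methods give a longer nocodazole exposure than the labels. Bulk, G1, S, G2, 90m G1 and 180m G1 each had 2 input and 2 pull-down libraries, the 50000-cell and 200000-cell samples had 1 input and 2 pull-downs, and the 1000000-cell sample had 1 of each. The deposited lists hold starts and ends in windows of 100 kb, with no signal or read count. The depth behind a call is therefore unknown, no spread between replicates can be given, and no test was run. Intervals of 95% (Wilson) cover the number of gaps only, and gaps that share a region are not independent.

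Lamina-associated domains, or LADs, are broad blocks of mostly late-replicating, AT-rich chromatin with few and mostly weakly expressed genes. They are broken up by stretches that lie farther from the lamina, and active genes are known to be frequent in such stretches. The 3-state Hidden Markov Model behind the lists separates strong signal from intermediate and from depleted signal. A window outside the consensus list may be of intermediate or depleted signal, or may have been called in only 1 replicate, and these cannot be told apart from the list.

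As examples, the 120 bases richest in CG are given for 4 gaps, and for the longer region beside the second and the third of them. Each is the extreme of its gap or region and does not show its typical DNA. The gaps are the longest spanned by the TSA-seq list (the first of equals in chromosome order), the first of the longest in no other list, the longest called by TSA-seq and in HCT116, and the one with most protein-coding gene starts. Sequences are from the GRCh37 (hg19) reference, plus strand, outside annotated UTRs and outside annotated exons. Capitals mark CG dinucleotides.
MEF2C gap, chr5:88179866-88179985: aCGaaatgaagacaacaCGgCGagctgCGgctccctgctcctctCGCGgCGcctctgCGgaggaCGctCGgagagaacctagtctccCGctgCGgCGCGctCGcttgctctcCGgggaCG
CACNB4 and NEB gap, chr2:152954685-152954804: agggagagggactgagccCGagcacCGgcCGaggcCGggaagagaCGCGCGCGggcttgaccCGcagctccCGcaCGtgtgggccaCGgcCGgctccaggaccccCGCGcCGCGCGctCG
region beside it, chr2:150186910-150187029: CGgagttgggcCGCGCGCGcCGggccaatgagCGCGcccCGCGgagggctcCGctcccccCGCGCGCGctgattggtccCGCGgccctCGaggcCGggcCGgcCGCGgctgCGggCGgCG
gap without a protein-coding start, chr11:38300401-38300520: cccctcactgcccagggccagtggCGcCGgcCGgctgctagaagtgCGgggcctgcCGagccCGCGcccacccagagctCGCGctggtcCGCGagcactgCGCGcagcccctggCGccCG
region beside it, chr11:39214360-39214479: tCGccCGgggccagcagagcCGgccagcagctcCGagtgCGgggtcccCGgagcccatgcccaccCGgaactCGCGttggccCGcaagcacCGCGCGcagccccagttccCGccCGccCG
SIK2 and PTS gap, chr11:112097271-112097390: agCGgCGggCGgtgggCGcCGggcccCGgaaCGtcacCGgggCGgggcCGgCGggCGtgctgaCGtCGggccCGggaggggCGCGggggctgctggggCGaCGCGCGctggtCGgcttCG

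The stretch of the MEF2C gap held 17 CG dinucleotides and lay inside MEF2C, 20.1 kb from its start. In the CACNB4 and NEB gap the stretch held 19 CG and lay 0.936 kb from the CACNB4 start. The richest stretch of the neighbouring region held 25 and lay 0.47 kb from the start of LYPD6. In the gap without a protein-coding start, the stretch (15 CG) was 1681 kb from the nearest one, RAG2, and its neighbour (16 CG) was 2267 kb from LRRC4C. The stretch from the gap with most starts held 23 CG, 0.24 kb from the start of PTS, an enzyme of tetrahydrobiopterin synthesis. Neighbouring regions are shown for 2 of the 4 gaps only, so these counts are no comparison of gaps with regions. How often such stretches occurred in all gaps and flanks is given with the gene counts.

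Together the 309 gaps covered 154 Mb, which is 4.97% of the autosomes and sex chromosomes. Their sizes ran from 100 kb, a single window, to 1000 kb, with quartiles of 300, 500 and 700 kb. The commonest size was 200 kb with 51 gaps, and 14 gaps were 1 window wide. At the edge of the rule, 21 gaps measured 1000 kb and 24 gaps measured 1100 kb. The TSA-seq list covered the whole of 2 of the former and of 1 of the latter.

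**Figure D1:**
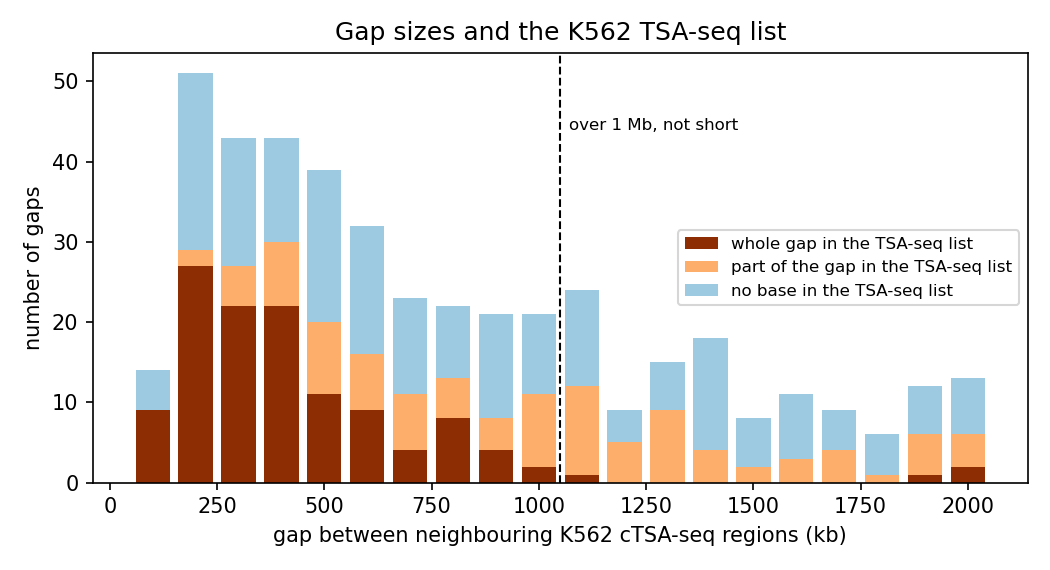
Number of gaps between neighbouring K562 cTSA-seq regions (y axis) by gap size in kb (x axis, up to 2000 kb), coloured by whether the whole gap, part of it or no base of it lies in the K562 TSA-seq list. Whole-gap coverage is frequent at 200 to 400 kb and falls to 2 of 21 gaps at 1000 kb, the last size counted as short.

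Short gaps lay beside 464 of the 664 K562 regions, and 154 regions had one on both sides. The regions beside them had a median size of 1400 kb, against 1200 kb for the 200 regions without a short gap. Runs of neighbouring short gaps formed 155 chains, of which 83 held 1 gap and 36 held 3 or more. Joining regions across short gaps would leave 355 regions in place of 664.

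Chromosome 5 held 38 short gaps among its 59 gaps, and both of the longest chains. The first ran from 113000001 to 130400000, with 10 regions and 9 gaps that made up 3.6 Mb of its 17.4 Mb. The second, from 90800001 to 107300000, held 8 gaps. A chain of 7 gaps lay on chromosome 4 from 84700001 to 103200000. On chromosome 4, 28 of 44 gaps were short, and on chromosome 8, 27 of 43. Chromosomes 17, 19, 22 and Y had none. Chromosomes 17 and 19 had only 4 and 3 regions to lie between, and chromosomes 22 and Y had 1 each.

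Short gaps held more genes per Mb than the regions around them. Protein-coding genes started in short gaps at 6.82 per Mb (1051 genes in 154 Mb), 3.67 times the 1.86 per Mb in the regions beside them (1647 genes in 885.1 Mb). The genome as a whole had 6.51 per Mb, so the gaps were near the genome average and the regions were poor. Gaps longer than 1 Mb had 9.24 per Mb, and regions called depleted by both cTSA-seq and TSA-seq had 17.3 per Mb. Against a stretch of flank no wider than the gap itself, which had 2.38 per Mb, the gaps were still denser. Most single gaps shared the direction, since 251 were denser in protein-coding starts than both of their flanks combined, 55 were less dense and 3 were equal.

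Of the 309 gaps, 268 (86.7%, interval 82.5 to 90.1%) held at least 1 protein-coding start, and the median gap held 3. In 64 gaps there was exactly 1 start, and in 93 there were 5 or more. Among the 41 gaps without a start, 6 lay wholly inside a protein-coding gene and 30 touched no protein-coding gene at all. The genes mostly fitted within the gap, with 915 of 1051 both starting and ending in the same one. Their median length was 49.7 kb, against 64.3 kb for genes that started in the flanking regions. Long noncoding RNA genes differed less, with 6.04 starts per Mb in gaps and 3.73 in flanks.

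Gene density changed from 1 window to the next at the called border. In flanking windows the density was 2.17 starts per Mb at 450 kb from a border and 2.99 in the last window before it, and in the first window of the gap it was 6.18. The second window of the gap had 8.13. CG-rich stretches of 200 bases (GC above 50%, CG at over 0.6 times the count that base composition gives) followed, from 44.9 per Mb in the last flanking window to 66.9 in the first gap window. In sum these stretches numbered 73.1 per Mb in gaps and 37.3 per Mb in flanks. GC content showed no such step and rose by small amounts across the border, from 38.9% to 39.0%.

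**Figure D2:**
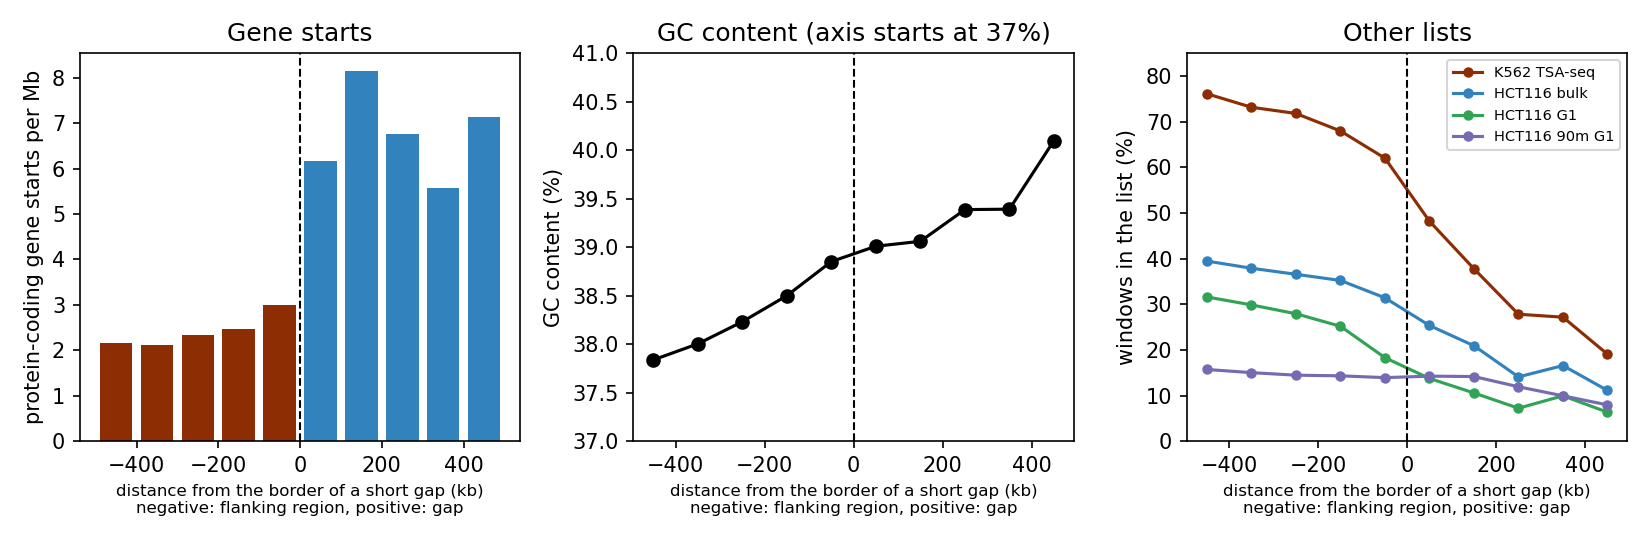
Protein-coding gene starts per Mb (left), GC content in % (middle, axis from 37%) and share of 100 kb windows in 4 other lists (right) by distance in kb from the border of a short gap, negative in the flanking region and positive in the gap. Gene starts step up at the border from 2.99 to 6.18 per Mb, and GC and the HCT116 bulk share change gradually. The TSA-seq share falls from 62.0% just outside to 48.2% just inside the border, and falls further inside the gap. The 90m G1 share is 13.9% just outside and 14.2% just inside the border. Each gap window is counted from its nearer border, so the windows farthest inside come only from the longer gaps.

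GC content of the gaps was a little above that of the regions. The median gap had 38.8% GC and the median of the mean of its flanks was 37.9%. Gap by gap the difference had a median of 0.77 percentage points, quartiles of -0.35 and 1.81, and a range from -4.57 to 8.06. Of 308 gaps with sequence, 148 were above both flanks, 98 lay between them and 62 were below both. Gaps over 1 Mb stood out more, with a median difference of 2.48 points and 252 of 326 above both flanks. The difference moved with gap size, from 0.10 points at 100 kb and 0.26 at 200 to 300 kb to 0.98 at 400 to 600 kb and 1.36 at 700 to 1000 kb.

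The gap highest above its flanks lay on chromosome 7 from 47200001 to 47800000, with 47.1% GC between regions of 39.4% and 38.6%. It held the start of TNS3, a tensin of focal adhesions, and no base of it was in the TSA-seq or HCT116 bulk list. HCT116 90m G1 covered 66.7% of it, as the only HCT116 list that had any of it. Next came a gap without a protein-coding start on chromosome X (114800001 to 115100000, 7.67 points above its flanks). A gap on chromosome 3 (75400001 to 75900000, 6.94 points) held ZNF717, a zinc finger gene, and FRG2C. HCT116 bulk covered all of that gap, as the only 1 of the 9 HCT116 lists to do so.

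The lowest gap minus flank difference, -4.57 points, belonged to a gap of a single window on chromosome 15 from 25600001 to 25700000. It held the start of UBE3A, the ubiquitin ligase gene that is imprinted in neurons. The gap of COP1, another ubiquitin ligase, on chromosome 1 from 175800001 to 176300000 had a difference of -3.58 points. Neither held a base of the TSA-seq list. The gap next to these, on chromosome 15 from 87800001 to 88300000 with a difference of -3.57 points, had no protein-coding start. All 9 HCT116 lists covered it, and the TSA-seq list covered 40% of it.

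TSA-seq called the whole of 118 short gaps (38.2%, interval 32.9 to 43.7%), part of 56 and no base of 135. The TSA-seq list is not titled as a consensus list, unlike the K562 cTSA-seq list. Whether its replicate calls were intersected is unknown, and the effect on these counts was not tested. By windows, 38.2% of gap windows (589 of 1540) were in the TSA-seq list, against 81.5% of windows in the flanking regions and 4.22% in gaps over 1 Mb. The share in gaps was near the 33.9% of all windows of these chromosomes. Those include the windows of cTSA-seq regions, which gaps leave out by the rule. Compared with its own flanks, a gap was covered less in 159 cases, more in 56 and equally in 94.

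Coverage of a gap by TSA-seq moved with what TSA-seq called beside it. Where the next window was in the TSA-seq list on both sides, 117 of 157 gaps (74.5%, interval 67.2 to 80.7%) were covered whole, 30 in part and 10 not at all. Any stretch of 5 windows, the median gap size, with both next windows called, taken anywhere on these chromosomes, was covered whole in 97.8% of cases. Where neither side was called, none of the 83 gaps had a base in the list. The sides without a TSA-seq call include regions that only cTSA-seq called, which lay on both sides of 30 gaps and on 1 side of 77.

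In all, 79 TSA-seq LADs spanned at least 1 short gap and 23 spanned more than 1. The LADs on chromosome 2 from 179500001 to 190300000 (10.8 Mb) and on chromosome 5 from 82900001 to 89700000 (6.8 Mb) each spanned 5. Another on chromosome 5, from 96500001 to 107800000 (11.3 Mb), spanned 4. Only 10 of the 133 short gaps that the TSA-seq list has of its own had the same borders as a cTSA-seq gap.

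The longest gap inside a TSA-seq LAD, on chromosome 5 from 88000001 to 89000000, held the start of MEF2C, a transcription factor of muscle, neural and blood development, and no other protein-coding start. HCT116 cells had no base of it in any of the 9 lists. The gap of equal size on chromosome 8 (107600001 to 108600000) held ANGPT1, a ligand of the TIE2 receptor, and ABRA, and 70% of it was in the HCT116 bulk list. The first of 4 gaps of 900 kb that TSA-seq spanned, on chromosome 2 from 187100001 to 188000000 held ITGAV, the integrin alpha V gene, with FAM171B, ZC3H15 and ZSWIM2, and no base of it was in an HCT116 list. The GC contents of these 3 gaps lay between 36.1% and 37.1%.

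Gaps that TSA-seq spanned had the GC content of their flanks. Their median difference was -0.06 points, at a median GC of 36.8%, while gaps free of TSA-seq lay 1.39 points above their flanks at 40.3%. Gaps called in part were at 1.36 points. Gene starts differed too, with 4.66 per Mb in spanned gaps and 7.92 in free ones, but the spanned gaps still exceeded the 1.81 per Mb of the regions around them.

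**Figure D3:**
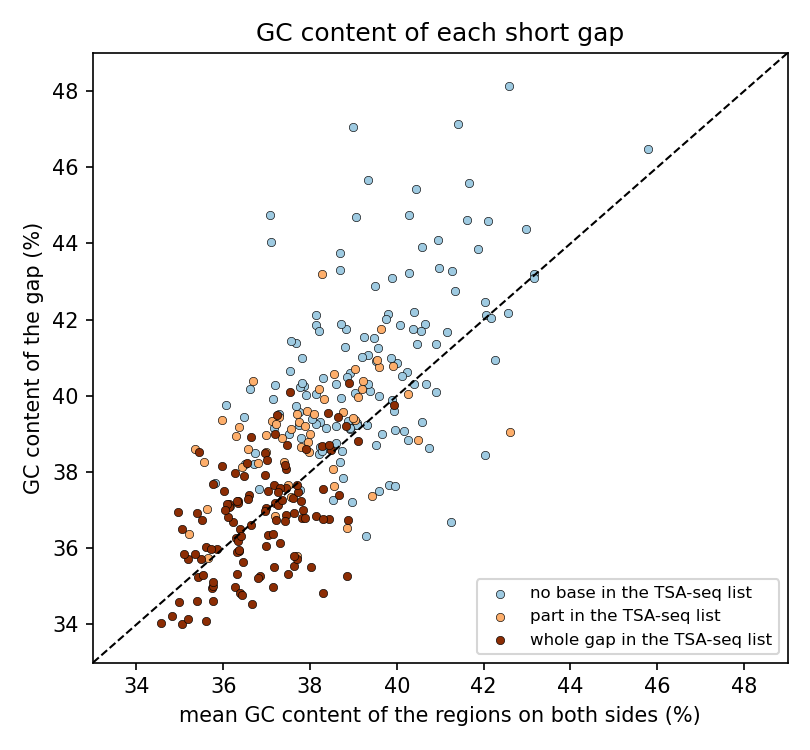
GC content of each of 308 short gaps in % (y axis) against the mean GC content of the regions on both sides in % (x axis), coloured by coverage in the K562 TSA-seq list. Points of gaps wholly in the TSA-seq list scatter about the dashed line of equality at the lower left, and most points of gaps with no base in it lie above the line.

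The share of gaps spanned by TSA-seq fell with the number of protein-coding starts. Among gaps without a start, 31 of 41 (75.6%, interval 60.7 to 86.2%) were spanned. With 1 to 2 starts, 56 of 107 were (52.3%), with 3 to 5 starts 27 of 97 (27.8%), and with 6 or more 4 of 64 (6.25%, interval 2.46 to 15.0%). Gaps with more starts were also longer and richer in GC, with medians of 400 kb and 35.9% without a start and 700 kb and 40.2% with 6 or more. Size alone went with spanning, from 9 of 14 gaps of 100 kb and 49 of 94 of 200 to 300 kb to 42 of 114 of 400 to 600 kb and 18 of 87 of 700 to 1000 kb. Within each size class the order by gene number was kept for TSA-seq. At 400 to 600 kb, 11 of 14 gaps without a start and 2 of 23 with 6 or more were spanned. At 700 to 1000 kb these were 5 of 8 and 1 of 38. The separate parts of gene number and GC content were not tested.

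**Figure D4:**
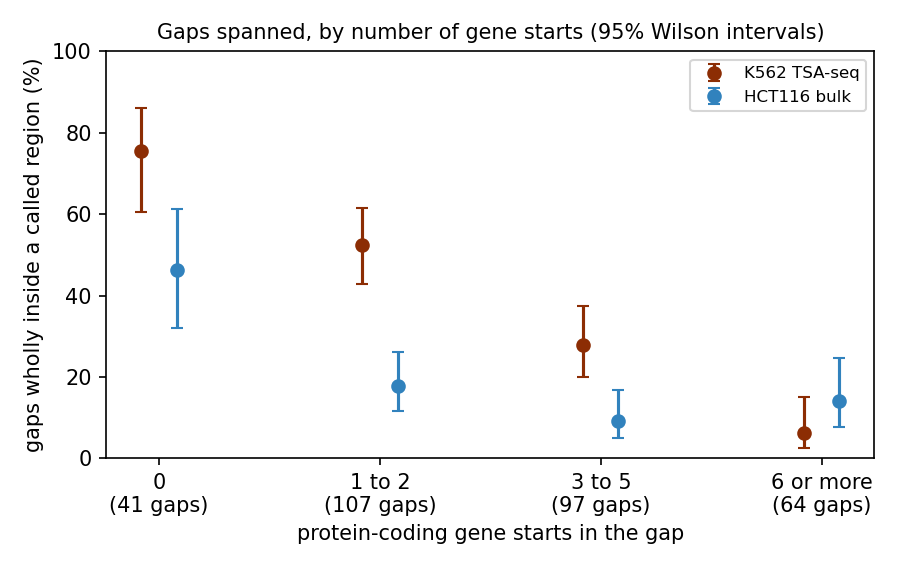
Share of short gaps in % that lie wholly inside a called region of the K562 TSA-seq or the HCT116 bulk list (y axis), by number of protein-coding gene starts in the gap (x axis), with 95% Wilson intervals. TSA-seq falls from 75.6% to 6.25%, and HCT116 bulk from 46.3% to 14.1% with its lowest share, 9.28%, at 3 to 5 starts.

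The 26 protein-coding starts of the gap on chromosome 11 from 111300001 to 112200000 were the most in any gap. By length its genes include SIK2, a salt-inducible kinase, POU2AF1, a B-cell coactivator, DIXDC1 and ALG9, a mannosyltransferase of N-glycosylation. No base was in the TSA-seq list and 11.1% was in the HCT116 bulk list. The regions on its sides held 3 starts and 1 start. A gap with 16 starts on chromosome 6 (116300001 to 117100000) was an exception among gene-rich gaps, since TSA-seq spanned it. It holds DSE, an epimerase of dermatan sulfate synthesis, NT5DC1, FRK, a Src-family kinase, KPNA5, an importin alpha, and TRAPPC3L, at 37.5% GC. Next in number, with 14 starts on chromosome 2 (228100001 to 228700000), a gap holds AGFG1, SLC19A3, a thiamine transporter, MFF, a mitochondrial fission factor, TM4SF20, the chemokine gene CCL20 and SCYGR2. TSA-seq covered 16.7% of it, and 90m G1 was the only HCT116 list that had any of it.

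HCT116 cells, a different cell line, called fewer of these gaps. The bulk list spanned 56 (18.1%, interval 14.2 to 22.8%), of which 19 were spanned by no other list of cells without a block. It held 20.6% of gap windows, against 45.8% of flanking windows and a background of 26.9% of all windows. The 50000-cell list spanned 30 gaps (9.71%) and held 11.3% of gap windows, against 22.8% of all windows. The 200000-cell list spanned 31 (10.0%) and held 170 of the 1540 gap windows (11.04%), against 21.9%, and the 1000000-cell list 26 (8.41%) and 10.2%, against 21.2%. Sorted cells without a block gave 26 gaps in G1 (8.41%), with 169 of the 1540 gap windows (10.97%) against 20.2% of all. In S they gave 33 gaps (10.7%), with 12.6% of gap windows against 22.4%, and in G2 28 gaps (9.06%), with 11.4% against 20%. In each of these 7 lists the gap windows were called less often than windows at large, which include the K562 regions, and the flanking windows more often. Windows of gaps over 1 Mb were called less often than short gaps in each, at 4.74% (G2) to 11.2% (bulk). The lists come from 1 cell line, so their likeness is not independent evidence.

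After nocodazole, the 180m G1 list spanned 44 gaps (14.2%) and held 16.1% of gap windows and 43.9% of flanking windows, against 20.5% of all windows. At 90m G1, 38 gaps were spanned (12.3%), and the contrast with the flanks was small, at 13.1% of gap windows and 16.6% of flanking windows, against 17% of all windows. Gaps over 1 Mb were at 11.9% in that list. In the other 8 HCT116 lists the flanking windows were called at 39.5 to 45.8% and the gap windows at 10.2 to 20.6%. The 90m G1 and 180m G1 lists are not titled as consensus lists, unlike the other HCT116 lists, although the study's methods describe an intersection of replicate calls in general.

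**Figure D5:**
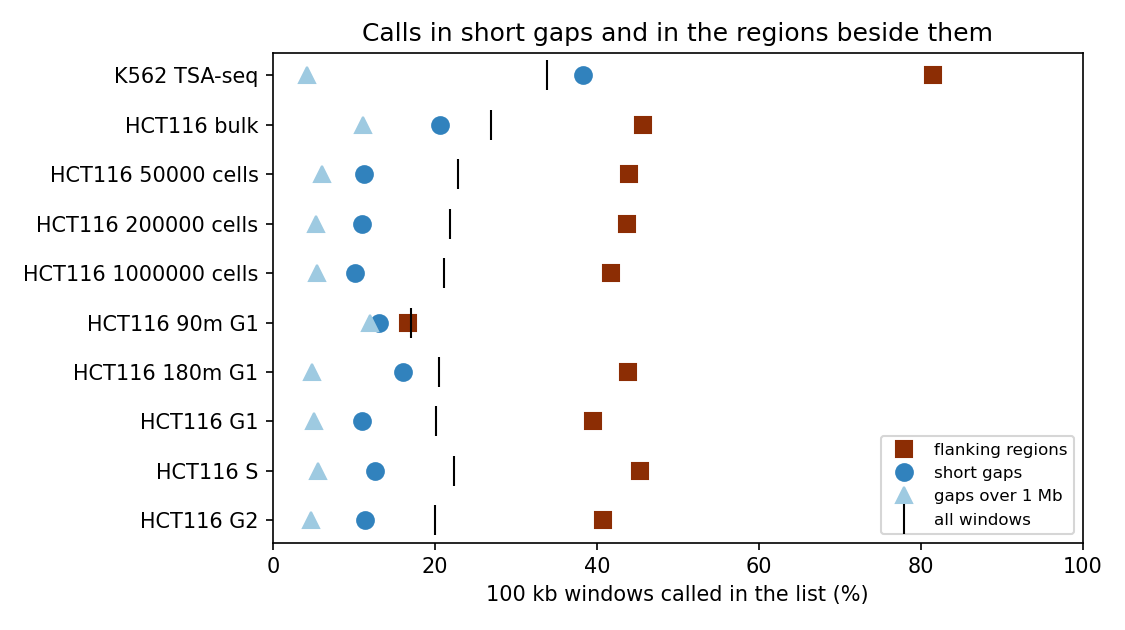
Share of 100 kb windows called in each list in % (x axis) for the K562 TSA-seq and 9 HCT116 lists (y axis), in the flanking regions, in short gaps, in gaps over 1 Mb and over all windows of chromosomes 1 to 22, X and Y. Short gaps lie between the flanking regions and the gaps over 1 Mb in every list, with values within 5 points of each other for 90m G1.

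Where HCT116 bulk called the next window on both sides, it covered 53 of 75 gaps whole (70.7%, interval 59.6 to 79.8%), against 97.1% of all such stretches of 5 windows. The other unblocked lists ranged from 25 of 39 (1000000 cells) to 27 of 37 (G2), and the 90m G1 list covered 34 of 37. The share over all such stretches was not computed for these lists. By gene number, HCT116 bulk spanned 19 of 41 gaps without a start, 19 of 107 with 1 to 2, 9 of 97 with 3 to 5 and 9 of 64 with 6 or more.

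HCT116 bulk calls were compared between gaps with and without a TSA-seq call in K562. Of gaps spanned by TSA-seq, 22 of 118 (18.6%) were spanned in HCT116 bulk, of those partly in TSA-seq 6 of 56 (10.7%), and of those free of TSA-seq 28 of 135 (20.7%). Counting any base in HCT116 bulk, these were 27 (22.9%), 17 (30.4%) and 49 (36.3%). There were 86 gaps free of both. No HCT116 list spanned 235 of the 309 gaps, 192 had no base in any of the 9, and 76 had no base in any HCT116 list or in TSA-seq. At the other extreme, 23 gaps were spanned by all 7 unblocked lists, 16 of them by TSA-seq too, and 7 were spanned by all 9 HCT116 lists. Such joint counts were not made for stretches elsewhere on these chromosomes, so whether they are many or few is unknown.

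The 3 longest of the 16 gaps held no protein-coding start. On chromosome 11 they ran from 37900001 to 38800000 and from 97500001 to 98300000, and on chromosome 21 from 23200001 to 24000000. Their GC contents were 35.2%, 35.3% and 35.1%, all below the mean of their flanks, with gap minus flank differences of -1.56, -1.01 and -0.64 points. Each was in 8 of the 9 HCT116 lists. Of the 7 gaps in all 9 lists, 6 had no protein-coding start. The exception, named after its values were seen, holds MAF, a leucine zipper transcription factor, on chromosome 16 from 79400001 to 80100000, and no base of it was in the K562 TSA-seq list.

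The gaps in no other list that were longest, at 1000 kb, numbered 7 and held 2 to 9 protein-coding starts each. The 3 first of them in chromosome order are described. One, on chromosome 2 from 152100001 to 153100000, had 9 protein-coding starts, among them CACNB4, a calcium channel subunit, NEB, the giant nebulin of muscle, RIF1, a regulator of replication timing, and STAM2, an endosomal sorting adaptor. Another, also on chromosome 2, from 224500001 to 225500000, had 7, including CUL3, a ubiquitin ligase scaffold, AP1S3, a clathrin adaptor subunit, WDFY1, SERPINE2, a protease inhibitor, and FAM124B. The gap on chromosome 4 from 151200001 to 152200000 had 4 starts, LRBA, a vesicle trafficking gene, PRSS48, RPS3A, a ribosomal protein gene, and MAB21L2, an eye development gene. Their GC differences from the flanks were 0.40, 2.49 and -2.17 points, in both directions.

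The list depleted by both methods barely reached into the short gaps. It held 4 of 1540 gap windows (0.26%), against 34.0% of the windows of gaps over 1 Mb and 20.9% of all windows. A window in the TSA-seq list cannot be depleted by both methods. That barred 38.2% of short-gap windows but 4.22% of those in gaps over 1 Mb, so part of the contrast is built in. All 4 windows were in 1 gap, on chromosome 2 from 30200001 to 31200000, of which they made up 40%. The other 308 gaps, outside the K562 cTSA-seq list by the rule, held no window depleted by both methods. HCT116 90m G1 covered the chromosome 2 gap whole and HCT116 bulk 70% of it.

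Starts of fixed gene lists were counted in gaps and in flanks. Of 20162 protein-coding starts, 5.21% were in short gaps and 8.17% in the regions beside them. These shares are the background for the lists that follow, whose members were counted by start. Most lists had few members in gaps, so their shares rest on few genes. Cytosolic ribosomal protein genes had 6 of 86 starts (6.98%) in short gaps and 2 in the flanks. RPL14 lay in a gap on chromosome 3 (40200001 to 40600000) and RPS7 in one on chromosome 2 (3100001 to 3800000), both covered whole in HCT116 bulk and with no base in TSA-seq. Each of these gaps was covered whole in only 2 of the 9 HCT116 lists, and had no base in the 200000-cell and 1000000-cell lists. RPL37, RPL15, RPS20 and RPS3A lay in 4 others. Mitochondrial ribosomal protein genes had 6 of 78 (7.69%) in gaps (MRPS28, MRPL19, MRPL47, MRPL15, MRPL50 and MRPL44) and 2 in flanks. The gap shares of both ribosomal lists were a little above the background of 5.21%.

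Proteasome subunit genes had 3 of 39 (7.69%) in gaps. PSMD14 lay in a gap that TSA-seq spanned, and PSMA8 and PSMC6 in gaps with no base in TSA-seq. Of 34 aminoacyl-tRNA synthetase genes, which charge tRNAs, matched by symbols of the form LARS1, 4 (11.8%) started in short gaps and none in flanks. The 4 were LARS1, IARS2, RARS1 and TARS1. EPRS1 and FARSB, synthetase genes whose symbols the match left out, also started in short gaps. The ubiquitin-specific peptidase genes, which remove ubiquitin, had 5 of 51 (9.80%) in gaps (USP13, USP45, USP53, USP33 and USP38) and none in flanks. Of these 5, the gap of USP53 had the highest TSA-seq share, 60%. CDK1, the mitotic kinase, was the only one of 20 cell cycle genes (5%) in a gap. That gap, on chromosome 10 from 62500001 to 62800000, was in neither TSA-seq nor any HCT116 list.

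Several lists of genes used in few tissues had more members in flanks than in gaps, as did protein-coding starts at large. Glutamate and GABA receptor genes had none of 45 in short gaps and 18 (40%) in the flanking regions, and type II cadherins none of 12 and 8 (66.7%). Potassium channel genes, matched by KCN with 1 letter and a number, had 3 of 82 (3.66%, KCNE4, KCNV2 and KCNE5) and 15 (18.3%). KCNMB1 and KCNMB3, channel subunit genes outside that match, also started in short gaps. Olfactory receptor genes, which are expressed in the nose, had 6 of 414 (1.45%) in gaps and 46 (11.1%) in flanks. Of the 6, OR6N1, OR6N2, OR6K3, OR6K6 and OR6K2 shared a gap of 400 kb with no base in K562 TSA-seq, which 8 of the 9 HCT116 lists covered whole, and OR5K2 lay in a gap on chromosome 3 with no base in TSA-seq or HCT116 bulk. The 94 keratin-associated protein, 53 clustered protocadherin and 16 intestinal epithelial genes had no member in a short gap and none in the flanking regions. Zinc finger genes had 16 of 509 (3.14%) in gaps and 15 (2.95%) in flanks, and the longest in gaps were ZNF804B, ZNF236, ZNF608 and ZNF717. Solute carrier genes, which encode membrane transporters, had 20 of 337 (5.93%) in gaps and 21 (6.23%) in flanks. The longest in gaps were SLC4A10, SLC4A4, SLC44A5 and SLC2A13. Flanking regions cover 885.1 Mb and gaps 154 Mb, so equal counts stand for a higher density in gaps.

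Of 39 HOX genes, which set position along the body axis, 9 (23.1%) started in short gaps, none in flanks and 30 in gaps over 1 Mb. The 9 were the HOXD genes of the list. All shared a single gap of 500 kb on chromosome 2 from 176700001 to 177200000, and the regions on its sides held no protein-coding start. These are HOXD1, HOXD3, HOXD4, HOXD8, HOXD9, HOXD10, HOXD11, HOXD12 and HOXD13. The gap held 167 CG-rich stretches at 41.1% GC, 1.73 points above its flanks. TSA-seq and HCT116 bulk had no base of it, and 180m G1 covered 60%.

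Of 16 genes of the nuclear lamina and envelope, 2 started in short gaps. LMNB1, which encodes the lamin-B1 that the antibody binds, lay in a gap of 700 kb on chromosome 5 from 125800001 to 126500000, at 42.1% GC and 3.96 points above its flanks. No TSA-seq or HCT116 bulk call reached it, and among the HCT116 lists 90m G1 covered 14.3%. TMPO, the gene of the lamina-associated polypeptide LAP2, lay in a gap of 400 kb on chromosome 12 from 98800001 to 99200000, 3.72 points above its flanks, together with SLC25A3, a mitochondrial phosphate carrier. HCT116 bulk covered the TMPO gap whole, the 200000-cell list 25% of it, and the other HCT116 lists and TSA-seq none.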

How the data were processed

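The authors aligned reads to hg19 with Bowtie2 2.3.2, counted them in windows with bedtools 2.26.0, converted log2 pull-down over input to z-scores, called 3 states with depmixS4 and intersected replicates. The deposited values are region starts and ends in bp, with no signal. Regions were placed on 100 kb windows of 24 chromosomes, and the stretches between consecutive K562 cTSA-seq regions were taken as gaps. GC content came from GRCh37 and genes from GENCODE release 44 mapped to it, placed by their start. A gap was spanned when every window was in a list. Python 3.11.15, numpy 2.4.6 and scipy 1.17.1 were used, and the search for gaps was tested on simulated lists.

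Members, gene lists and comparisons were chosen with earlier results of these data known. Gaps were named as the 3 longest spanned by TSA-seq, in no list, and spanned by TSA-seq and the unblocked HCT116 lists, the 3 highest and 3 lowest in GC against flanks, and the 3 with most starts, with ties in chromosome order; genes were those starting there (at most 6, by length, those without a symbol left out) and list members in gaps (the 4 longest where over 12). Printed sequences skip UTRs, which was not planned. Mouse, RPE1, SLAM-seq and the study's own TSA-seq data were not used here. Some genes and sequences that these rules select are not reported here.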

Additional observations from a re-analysis of the deposited data

How the results depend on the processing

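No paired analysis was possible because the lists hold no values for single replicates. Of 187 alternative values, 162 stayed within their limit (1.5 times the value, or the interval of a share) and 25 did not. Only the GC difference could change sign, since counts, sizes, ratios and shares cannot be negative, and it stayed positive in each run. With gaps of at most 0.5 Mb, 190 gaps of median 300 kb differed from flanks by 0.376 GC points, TSA-seq spanned 47.9%, HCT116 bulk 23.7%, and 0% of windows were depleted by both methods. With gaps of at most 2 Mb, TSA-seq spanned 28.1%, HCT116 bulk 13.8%, and 3.73% of windows were depleted. Between regions called by both methods, a list made with TSA-seq, TSA-seq spanned 54.9% and 0% of windows were depleted. A flank as wide as the gap gave 0.503 GC points, and genes of all types a density ratio of 2.01. Counting any base, TSA-seq covered 56.3% and HCT116 bulk 30.1%, and where the next windows were called, 74.5% and 70.7%. In place of bulk, 50000 cells gave 9.71%, 200000 cells 10.0%, 1000000 cells 8.41%, 90m G1 12.3%, G1 8.41%, S 10.7% and G2 9.06%. Leaving out each chromosome in turn gave GC differences from 0.733 to 0.821 points, density ratios from 3.58 to 3.79, TSA-seq shares from 36.2 to 39.7%, HCT116 bulk shares from 17.4 to 19.9%, and depleted shares from 0 (without chromosome 2) to 0.294%. The density ratio stayed over 2 in each alternative run. The lists hold no depth, so the share of uncalled windows that deeper sequencing would call is unknown.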
